A study of Solanum lycopersicum with 9 samples.

Results

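CDKA1, PCNA and P18, 3 genes of cell division and DNA synthesis, were followed in red ripe tomato fruit. CDKA1 encodes an A-type cyclin-dependent kinase, the plant kinase that acts with cyclins at entry into DNA replication and into mitosis. PCNA encodes the ring-shaped sliding clamp that holds DNA polymerases on their template. P18 encodes dUTPase, which breaks down dUTP, keeps uracil out of new DNA and supplies the precursor of thymidine nucleotides. They were taken as every probe set whose symbol in the platform annotation was one of these names, which gave 3 genes of the 802 named on the array and 3 probe sets of 10038, with 1 probe set for each gene. Their Entrez identifiers were 544139 for CDKA1, 544248 for PCNA and 544274 for P18. The gene table of tomato RefSeq lists dUTPase as a synonym of P18 and cdc2A-1 as a synonym of CDKA1. The genes had been picked because they differed from wild type on these same arrays, so their differences from wild type are given as a description and were not used as tests.

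The fruit came from 2 transgenic lines of Solanum lycopersicum cv Money Maker that carry an antisense construct against Asr1, named AS17 and AS5, and from wild-type plants (WT) without it. Asr1 encodes a small protein named for abscisic acid, stress and ripening, and the study asked what its silencing changes in ripe fruit. There were 3 pools of mesocarp for each group, with 1 Affymetrix array for each pool (9 arrays). The series describes pools of 2 fruits and 3 plants per line. Its labels do not say whether pools share plants, and p-values measure only the spread between pools. The promoter of the construct is not given in the sources used here, and age was given as the red ripe stage. RNA of whole mesocarp was measured, so fewer cells of a type and less RNA per cell cannot be told apart.

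Cell division in tomato fruit is concentrated in the period soon after pollination. Growth then continues by cell expansion, during which nuclei copy their DNA without dividing, and both have largely ended when the fruit ripens. Genes of replication can still be transcribed in such tissue, where the sliding clamp also serves DNA repair.

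The arrays held signal for most of the 18 genes listed as ripe fruit markers. Of these, 17 were above background on all 9 arrays in their brightest probe set, as were 624 of 909 named probe sets. Their levels were not all alike in the groups, and the mean of both lines differed from WT by -1.35 to 1.63. None of the 18 had a limma adjusted p under 0.05 there, where 1.28% of all probe sets did. PG2, the polygalacturonase of ripening cell walls, lay between 11.8 and 12.3 on the deposited log2 scale, E8, a ripening gene, between 11.6 and 12.1, and Psy1, which encodes phytoene synthase of fruit, between 11.9 and 12.1 in its brightest probe set. The others with the highest means were 2A11 at 12.5 to 12.6, ADH2 at 12.3 to 12.4 and EXP1, an expansin, at 10.1 to 11.2. The probe sets of Psy1 did not behave alike. One of the dimmer ones lay between 1.40 and 2.37 in WT pools and between 4.33 and 7.52 in silenced pools. It was above background on 7 of the 9 arrays. Another Psy1 probe set lay between 4.69 and 5.58. CRTL-E-1, the lycopene epsilon cyclase gene, was on the list of markers and at background on all 9 arrays, and nothing about ripeness is read from it. Background was taken for each array as the 95th percentile of 63 control probe sets for reporter genes, and lay between 1.41 and 1.98. AS17 pool 1 and AS5 pool 3 stood apart, at 35.0 and 33.4 on the first principal component (40.1% of the variance), against -27.2 to 12.5 on the other 7 arrays, and the differences of the 3 genes and the counts of called probe sets were also computed without them. The 3′ minus 5′ signal of the control gene gapdh, which bears on RNA quality, was 0.55 on AS17 pool 1 and 0.62 on AS5 pool 3. On the other 7 arrays it was 0.83 to 1.06. AS5 pool 3 was also the lowest for actin (0.48), ef1a (2.61) and ubiquitin (1.12). AS17 pool 1 lay inside the range of the other 7 for actin (1.08) and ef1a (2.91). For ubiquitin it was below them, at 1.36 against 1.41 to 1.75. The part of RNA quality in the results was not tested. No level of Asr1 was analysed here.

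CDKA1 was higher in silenced fruit. It stood at 8.68, 8.21 and 8.91 in AS17 pools 1, 2 and 3, at 8.40, 7.95 and 8.67 in AS5 pools 1, 2 and 3, and at 6.90, 7.30 and 7.79 in WT pools 1, 2 and 3. All 6 silenced pools lay above all WT pools, as in 4.73% of all probe sets, but narrowly: AS5 pool 2, the lowest of them, was 0.16 above WT pool 3, the highest of WT. The group means were 8.60 ± 0.36 in AS17, 8.34 ± 0.36 in AS5 and 7.33 ± 0.45 in WT (log2, SD, n = 3 each). The mean of both lines was 1.14 above WT (SE 0.24), which is 2.2-fold. The line differences were 1.27 in AS17 and 1.01 in AS5 (SE 0.28 each). WT had the widest spread of the groups for CDKA1, and the difference for the mean of both lines was 1.37 without WT pool 3 and 0.92 without WT pool 1.

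PCNA was lower in silenced fruit by less. Its values were 6.61, 6.80 and 6.78 in AS17 pools 1, 2 and 3, then 7.22, 6.73 and 6.93 in AS5 pools 1, 2 and 3, and 7.64, 7.14 and 7.47 in WT pools 1, 2 and 3. AS17 lay wholly under WT, as in 12.5% of all probe sets, while AS5 overlapped it, since AS5 pool 1 was 0.08 above WT pool 2. Thus 5 of 6 silenced pools were below all WT pools. Means were 6.73 ± 0.10 in AS17, 6.96 ± 0.25 in AS5 and 7.42 ± 0.25 in WT (log2, SD, n = 3 each). The mean of both lines differed from WT by -0.57 (SE 0.15), or 1.49-fold lower. In AS17 the difference was -0.69 and in AS5 -0.46 (SE 0.17 each).

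P18 showed the widest difference of the 3 genes. In AS17 pools 1, 2 and 3 it was at 3.43, 3.17 and 3.74, in AS5 pools 1, 2 and 3 at 2.45, 3.37 and 3.74, and in WT pools 1, 2 and 3 at 5.07, 5.66 and 5.0. Every silenced pool was under every WT pool, as in 4.32% of all probe sets, with a gap of 1.26 between the nearest of them. The group means were 3.44 ± 0.29 in AS17, 3.19 ± 0.66 in AS5 and 5.24 ± 0.36 in WT (log2, SD, n = 3 each). The mean of both lines differed from WT by -1.93 (SE 0.28), which is 3.80-fold lower, with -1.80 in AS17 and -2.06 in AS5 (SE 0.32 each). AS5 pool 1 was the lowest and only 0.62 above its array's background, whereas the other 2 genes were at least 4.82 above background everywhere. All 3 genes were above background on all 9 arrays, as were 624 of the 909 named probe sets.

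**Figure D1:**
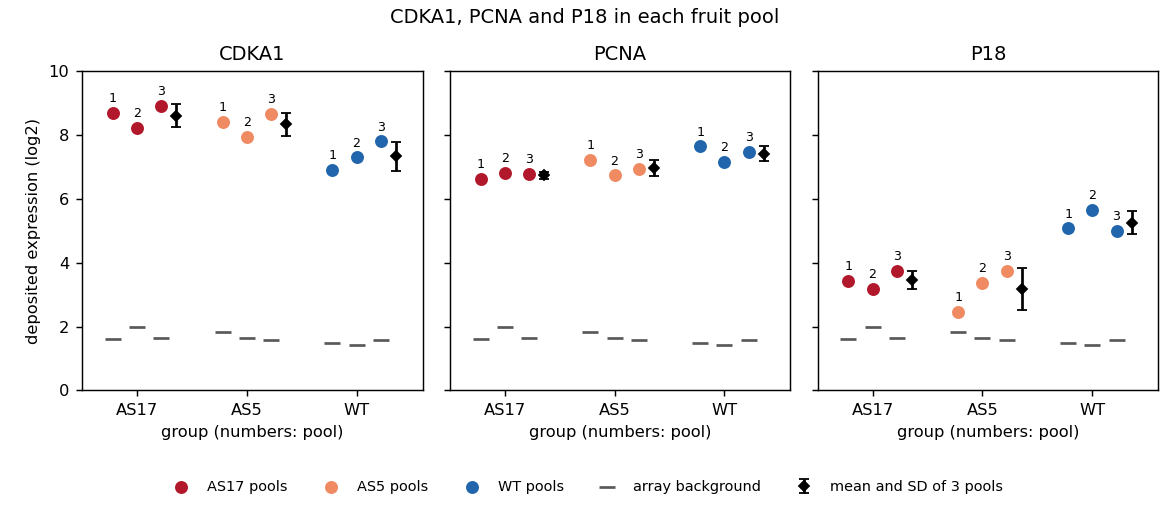
Deposited log2 expression of CDKA1, PCNA and P18 (vertical axis) in the 3 pools each of AS17, AS5 and WT, with pool numbers, the group mean and SD (diamonds and bars) and the background of each array (dashes). CDKA1 is higher and P18 lower in all 6 silenced pools than in any WT pool, while PCNA overlaps between AS5 pool 1 and WT pool 2.

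The pools did not rank alike for the 3 genes. AS5 pool 1 had the highest PCNA and the lowest P18 of the 6 silenced pools, and for CDKA1 it lay between AS17 pool 2 and AS5 pool 3. In WT, pool 1 had the highest PCNA and the lowest CDKA1, and pool 2 the highest P18 and the lowest PCNA. The spread within groups was 0.39 for CDKA1 and 0.46 for P18 (pooled SD, log2), wider than for 85.7% and 90.6% of all probe sets. PCNA, at 0.21, was close to the median probe set, also 0.21.

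Set among all probe sets, 31 of 10038 had a difference between the mean of both lines and WT at least as large in size as that of P18, itself included. The count was 191 for CDKA1 and 853 for PCNA. Models were fitted across all probe sets with limma, and a probe set was called at a Benjamini-Hochberg adjusted p under 0.05. For the mean of both lines, 1 of the 3 genes was called, P18, where 1.28% of all probe sets were called. P18 was also the gene called in AS17 (1 of 3, with 1.34% of all probe sets) and in AS5 (1 of 3, with 0.379%). The call of P18 held for the mean of both lines in 6 of 9 fits with 1 array left out, and was lost without WT pool 1, 2 or 3. It held in 2 of 9 such fits for AS17, those without AS5 pool 1 or AS5 pool 3, and in 1 of 9 for AS5, that without AS5 pool 3. With pool number as a block it was not called in AS17 or in AS5, nor in AS5 in a fit of AS5 and WT alone. CDKA1 and PCNA were not called in any fit with 1 array left out. For the mean of both lines, CDKA1 was called with median centring, with array weights and with the pool block (3 of 10 other settings), and PCNA with array weights and with control-gene centring (2 of 10). In AS17, CDKA1 was called with the block and PCNA with control-gene centring. Silenced pools lay wholly on one side of WT for 2 of the 3 genes, against 9.06% of all probe sets. These contrasts chose the genes, so nothing is read from the counts.

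**Figure D2:**
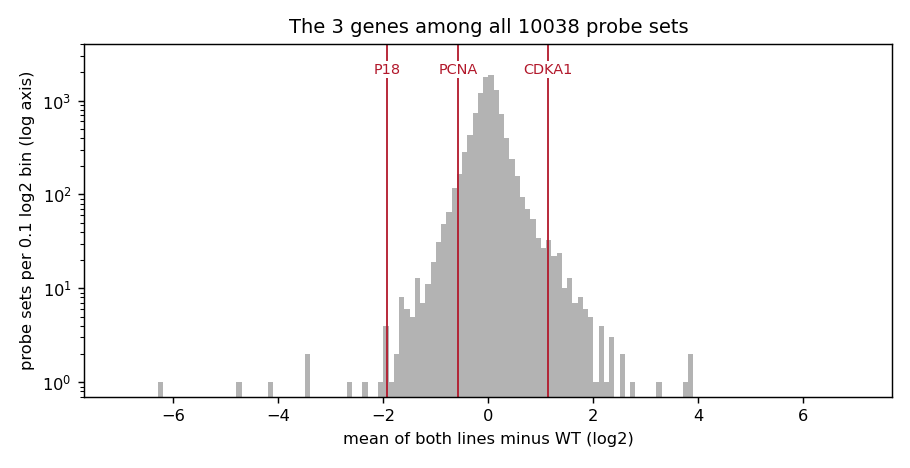
Histogram of the difference between the mean of both lines and WT (log2, horizontal axis) over all 10038 probe sets, with the number of probe sets per bin on a log axis; vertical lines mark the 3 genes. P18 at -1.93 and CDKA1 at 1.14 lie in the tails, and PCNA at -0.57 lies nearer the centre.

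Both lines share the WT arrays, so their differences from WT are not separate measurements. The direct comparison of AS17 with AS5 was not the ground for choosing the genes and was tested. It uses the same silenced pools as that choice, so the test is not wholly separate from it. None of the 3 passed. CDKA1 differed by 0.26 (95% interval -0.37 to 0.89, limma adjusted p = 0.945), and the ranges of the lines overlapped. With 1 array left out this ran from 0.07 without AS5 pool 2 to 0.46 without AS17 pool 2. PCNA differed by -0.23 (95% interval -0.61 to 0.15, limma adjusted p = 0.905), with AS5 pool 2 inside the range of AS17, and ran from -0.35 without AS5 pool 2 to -0.10 without AS5 pool 1. P18 differed by 0.26 (95% interval -0.48 to 0.99, limma adjusted p = 0.961), and without AS5 pool 1 the sign turned, at -0.11. Exact two-sided permutation tests over the pools gave p = 0.4 for CDKA1, 0.3 for PCNA and 0.7 for P18, where 3 pools against 3 cannot go under 0.1. In limma 0% of all probe sets were called between the lines, and 5.89% had an unadjusted p under 0.05. The intervals leave room for differences of up to 0.99 log2 units between the lines, so the lines are not shown to be alike.

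Without AS17 pool 1 and AS5 pool 3, the mean of both lines differed from WT by 1.04 for CDKA1 (SE 0.26), by -0.53 for PCNA (SE 0.16) and by -2.06 for P18 (SE 0.27). For CDKA1 the pools left out stood at 8.68 and 8.67, next to AS17 pool 3 at 8.91, and for P18 at 3.43 and 3.74. Control genes were also higher on average in silenced pools, and highest in AS17 pool 1. The mean 3′ signal of actin, ef1a, gapdh and ubiquitin lay between 10.4 and 10.9 in silenced pools and between 10.1 and 10.4 in WT pools, a difference of 0.32, and WT pool 3 was level with the lowest silenced pool. With each array centred on that mean, the differences from WT were 0.82 for CDKA1, -0.89 for PCNA and -2.25 for P18, in a scale on which the median of all probe sets moved to -0.31. This centring shifts every probe set of an array alike, and on it PCNA exceeds CDKA1 in size. The part of the control genes' shift in the results was not tested.

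**Figure D3:**
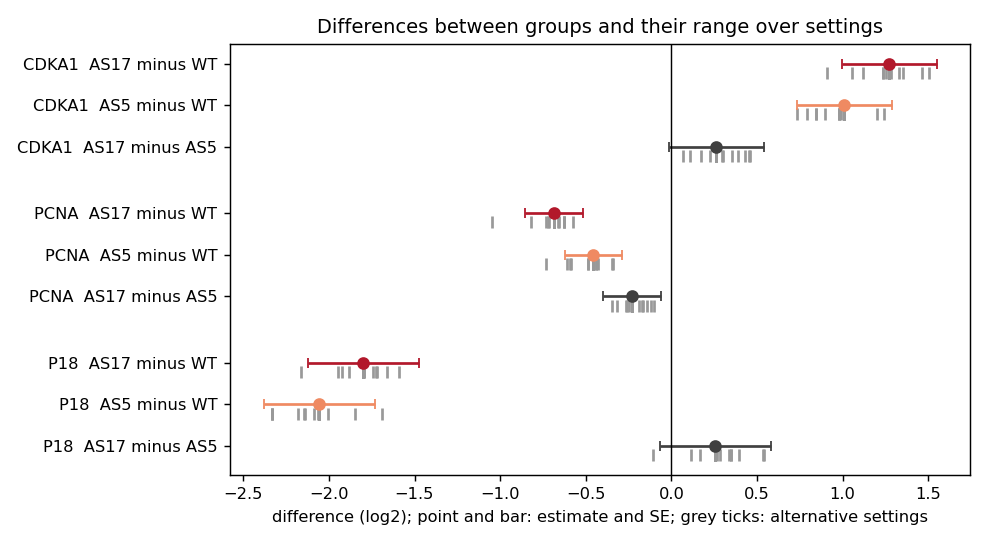
Log2 differences (horizontal axis) of CDKA1, PCNA and P18 for AS17 minus WT, AS5 minus WT and AS17 minus AS5, as limma estimates with SE, with grey ticks for the alternative settings. The ticks for differences from WT stay on one side of 0, and those for P18 between the lines fall on both sides.

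Other genes of the cell cycle, DNA synthesis and chromatin were looked up by symbol, and 16 besides the 3 genes had a named probe set. For the mean of both lines, 0 of the 16 passed in either direction in limma (adjusted p from 0.183 to 0.907), where 1.28% of all probe sets did. At an unadjusted p under 0.05 there were 4 of 16, against 15.5% of all probe sets. Their median difference was -0.07, beside 0.00 over all probe sets, with 6 above 0 and 10 below. Over the 11 of them above background on all 9 arrays, the median was -0.12, with 3 above 0 and 8 below and 3 at an unadjusted p under 0.05. None passed in AS17 or AS5 alone either, with 5 and 0 of 16 at an unadjusted p under 0.05, against 17.3% and 9.24% of all probe sets.

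Cyclin and kinase genes tied to mitosis were near or at background in all groups. CycA1 and CycB2, cyclin genes of the A and B types, and CDKB2, which encodes a kinase of the plant-specific mitotic class, were at background on all 9 arrays. CDKB1, of the same class, was above background on 1 array, with values of 1.03 to 1.44. CycA2, an A-type cyclin gene, was above it on 3 arrays, with values of 0.76 to 1.85. No fold is given for these genes, although they count among the 16.

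Regulators of the kinase other than the mitotic ones were measured in every pool. The widest difference outside the 3 genes was that of krp2, which encodes a Kip-related inhibitor of cyclin-dependent kinases. It stood at 4.97, 5.68 and 5.22 in AS17 pools 1, 2 and 3, at 5.54, 4.80 and 4.46 in AS5, and at 4.46, 3.3 and 4.47 in WT. The difference of 1.04 (SE 0.33) did not pass, and AS5 pool 3 lay inside the WT range. CYCD3, a D-type cyclin gene of entry into the cycle, stood at 6.97, 5.59 and 6.72 in AS17 pools 1, 2 and 3, at 5.81, 5.90 and 6.91 in AS5, and at 5.14, 5.98 and 5.25 in WT. Its difference of 0.86 (SE 0.37) did not pass, and the 2 pools that stand apart were the highest for CYCD3, at 6.97 and 6.91. Without those pools the difference was 0.55 (SE 0.31) for CYCD3 and 1.23 (SE 0.34) for krp2.

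The second inhibitor gene on the array, krp1, differed by 0.13 (SE 0.11). CycA3, of the A-type cyclins linked to DNA replication, differed by -0.19 (SE 0.11), with 6.95 ± 0.20 in AS17, 7.37 ± 0.09 in AS5 and 7.35 ± 0.07 in WT (SD, n = 3 each). CDKC, a kinase gene linked to transcription rather than division, differed by -0.15 (SE 0.10), and OVATE, a regulator of fruit shape, by -0.15 (SE 0.25), or 0.06 without the 2 pools.

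In DNA synthesis and repair, NDK, a nucleoside diphosphate kinase that makes nucleoside triphosphates, differed by -0.05 (SE 0.13), with every pool between 11.3 and 11.8. DDB1, the damaged DNA-binding protein gene behind the high pigment-1 mutant of tomato, differed by -0.12 (SE 0.12). P18 and PCNA thus stood apart in size from the other 2 genes measured there, which is a description since they were chosen for it. Among chromatin genes, MET1, which encodes the methyltransferase that maintains CG methylation after replication, differed by -0.54 (SE 0.23), close to the size for PCNA, or by -0.66 (SE 0.23) without the 2 pools that stand apart. Its values were 5.46, 4.71 and 5.14 in AS17 pools 1, 2 and 3, then 5.09, 5.59 and 5.53 in AS5, and 5.75, 6.25 and 5.40 in WT. Of the silenced pools, 3 of 6 were inside the WT range. MSI1, a subunit of the chromatin assembly factor, differed by -0.09 (SE 0.10). The more abundant probe set of H1, a linker histone, differed by -0.26 (SE 0.18) and the other by -0.11 (SE 0.29). None of these passed.

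**Figure D4:**
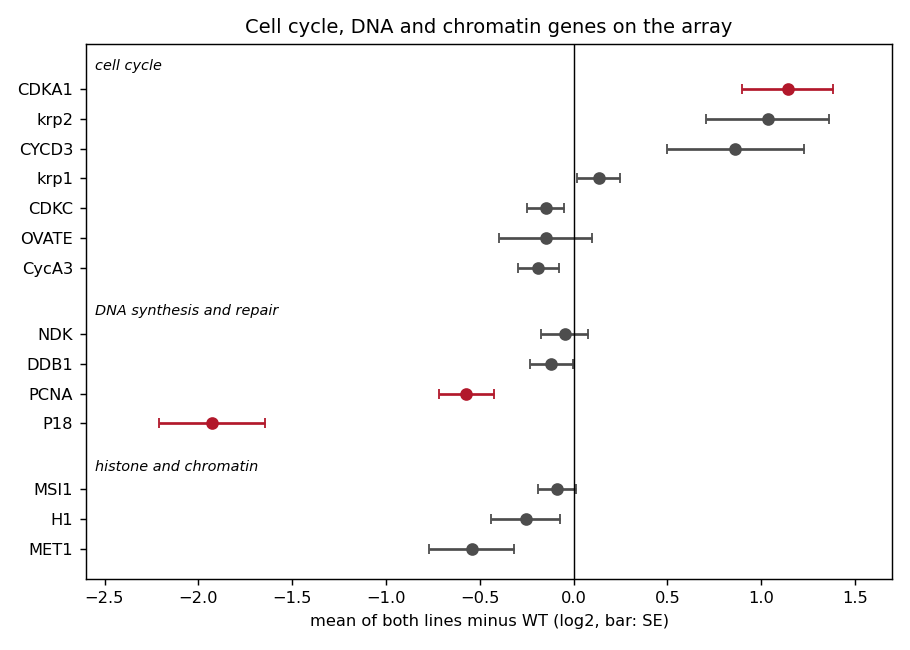
Difference between the mean of both lines and WT (log2, horizontal axis, with SE) for the 3 genes (red) and the 11 other list genes above background on all 9 arrays (grey). P18 lies apart at -1.93, and krp2 at 1.04 and CYCD3 at 0.86 follow CDKA1.

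The named probe sets most like each gene were sought by Pearson's r over the 9 arrays, among 623 others above background on all arrays. Much of such likeness comes from group differences that genes share, so r is a description. For CDKA1, 7 probe sets had an r above 0.9 and 3 had one below -0.9. The highest were LOC543715 (0.95), the expansin gene EXPA4 (0.94) and RPL8, a ribosomal protein gene (0.94). The lowest were PDS, the phytoene desaturase gene (-0.95), ribA (-0.94) and DET1, a repressor of light responses (-0.91). PDS stood at 6.95, 7.56 and 6.84 in AS17 pools 1, 2 and 3, at 7.43, 7.51 and 7.14 in AS5, and at 8.03, 7.86 and 7.63 in WT. Within each group, the pool with the lowest PDS was the one with the highest CDKA1. PDS was picked for its r over these same pools, so this ranking is not separate evidence of a link.

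PCNA had 1 probe set above 0.9 and 1 below -0.9. The most like it were PYD1A (0.92), CTR4 (0.88), a kinase gene of the CTR family of ethylene signalling, and PLDa1 (0.88), a phospholipase D gene. Least like it were LOC543515 (-0.90), a xylosidase gene by its synonym LEXYL2, the aminopeptidase gene LAPA1 (-0.87) and gad2 (-0.87). For P18, 1 probe set was above 0.9 and 3 were below -0.9. The highest were LOC544081 (0.92), LOC543933 (0.89) and PSBP (0.88), a protein gene of photosystem II. The lowest were ACS2 (-0.92), an ethylene synthesis gene of ripening fruit, LOC543892 (-0.91) and LOC543971 (-0.90). Between the 3 genes themselves, r was -0.73 for CDKA1 with PCNA, -0.72 for CDKA1 with P18 and 0.57 for PCNA with P18 over the 9 arrays. With group means removed, these became 0.02, 0.19 and -0.71. For PCNA, AS5 pool 1 (7.22) and WT pool 2 (7.14) lay farthest from their group means. For P18, AS5 pool 1 (2.45) lay farthest, followed by AS5 pool 3 (3.74) and WT pool 2 (5.66). P18 in AS5 pool 1 was only 0.62 above background. With 3 pools per group, no relation between the genes is read from these values.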

How the data were processed

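RNA of 9 pools (3 each of AS17, AS5 and WT) was measured on 1 array per pool. The authors deposited log2 expression values per probe set, made with RMA per the submitters' processing notes; its version, settings, probe definitions and genome build are not given in the sources used here, and so no coordinates are printed. The table held 10209 probe sets, and 171 controls were left out. The annotation, which is old, named 909 of the 10038 others. The deposited values were used without further scaling. Log values near background understate differences. The fit used R 4.3.3 and its package limma 3.58.1 (lmFit, eBayes, 1 mean per group, all 9 arrays), with Benjamini-Hochberg adjustment over all probe sets. SE and intervals are limma's, and SD is over pools. The number of arrays limits the precision. Here n counts pools. Figures used matplotlib 3.10.9. The code was tested on simulated data.

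The genes and gene lists were chosen with earlier results of these data known. List genes were matched by symbol or synonym, with the probe set of highest mean per gene. TPX2 matched but was set aside, since in tomato that symbol names a peroxidase. Genes named are the 3 genes, the list genes, the 3 most and least like each gene and the 6 ripe fruit markers of highest mean. Alternatives were a filter on dim probe sets, median, quantile and control-gene centring (the last added after seeing the data), variance trend, robust variances, array weights, pool block, 2-group fits, an adjusted p under 0.1 and leaving out arrays.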

Additional observations from a re-analysis of the deposited data

How the results depend on the processing

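Of 228 values of the 12 differences of CDKA1, PCNA and P18 under 19 alternatives each, 87 equalled the main estimate, mostly because the setting cannot change it. Of the other 141, 140 kept their sign, and the exception was P18 between the lines, which ran from -0.11 to 0.53 with 1 array left out (0.26 with all). Control-gene centring moved the differences from WT of all 3 genes by the same amounts. Only for PCNA was the move more than the pooled SD between pools, which was 0.21, against 0.39 for CDKA1 and 0.46 for P18. The PCNA differences became -1.05 in AS17, -0.73 in AS5 and -0.89 for the mean of both lines. The 16 list genes had 0 calls for the mean of both lines under every alternative. Counts of called probe sets moved more. For AS17 minus WT the count was 135, 29 higher and 106 lower (37 and 77 with median centring, 41 and 88 with quantile normalisation, 35 and 565 with control-gene centring). It was 311 with array weights, 74 with the pool number as replicate block, 47 in the 2-group fit, 315 without both AS5 pool 3 and AS17 pool 1, 600 with control-gene centring, 354 at an adjusted p under 0.1, and 20 to 140 with 1 array left out (lowest at 20 when AS17 pool 3 was omitted, at 22, 35 and 35 on omitting WT pool 1, 2 or 3, and at 73 and 48 on omitting AS5 pool 1 or 2). For AS5 minus WT it was 38, and 200 with array weights, 68 with control-gene centring, 58 at an adjusted p under 0.1, and 18 to 38 with 1 array left out (18 on omitting WT pool 1, 2 or 3, with 21 and 22 on omitting AS5 pool 1 or 2). Both lines averaged against WT gave 128, 39 higher and 89 lower (33 and 307 with control-gene centring), and 556 with array weights, 78 with the block, 208 without both pools, 340 with control-gene centring, 252 at an adjusted p under 0.1, and 27 to 110 with 1 array left out (27, 37 and 51 on omitting WT pool 1, 2 or 3, with 62 and 49 on omitting AS5 pool 1 or 2 and 70 on omitting AS17 pool 3). Between the lines it was 0, and 1 at an adjusted p under 0.1. The cause of these moves was not tested. Pool numbers share only a number: deviations of same-numbered pools correlated at -0.38 to 0.55, over 0.1 in 2 of 9 pairs, and a pool correlated best with its own number in 3 of 18 choices among the pools of another group. Promoter motifs, planned as a description, were not analysed here.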
